A study of Ovis aries with 15 samples.

Results

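Kidneys of sheep fed aflatoxin B1 (AFB1), with or without curcumin, were set against kidneys of sheep fed neither. The series holds 15 RNA-seq libraries labelled as kidney, and the comparison holds 14 of them. They were the 5 libraries of the control group (CON) and 4 of the group fed AFB1 (replicates 2 to 5). The rest were all 5 of the group fed AFB1 together with curcumin (AFB1_CUR). The 9 libraries of the AFB1 and AFB1_CUR groups were pooled as the fed libraries, and a called gene was taken as shared where both fed groups also differed from CON by more than 1.5-fold in its direction. AFB1 replicate 1 was left out because its RNA did not look like kidney RNA. Albumin (ALB), the main plasma protein made by hepatocytes, stood at 25681 FPKM in it and at 0 to 23.9 FPKM in the other libraries, while LRP2, the endocytic receptor of the proximal tubule, stood at 0.00799 against 30.2 to 134 FPKM. In the 14 libraries used here, UMOD, which marks the thick ascending limb, ranged from 126 to 1734 FPKM and AQP2, the water channel of the collecting duct, from 205 to 582 FPKM, so the label of kidney tissue held in each of them.

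The animals were young male Dorper and Small-tailed Han crossbred sheep that were penned in pairs and received a total mixed ration, to which AFB1, or AFB1 and curcumin, was added for the fed groups. By its label each library was made from the kidney of a separate sheep, and 5 sheep per group were sequenced. The study names the renal cortex for its histology, and the part of the kidney that gave the RNA is not stated in the sources used here. No group received curcumin without AFB1, so the AFB1_CUR group differs from CON in both compounds.

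AFB1 is a toxin of Aspergillus moulds that the liver oxidises to a reactive epoxide, and its metabolites are cleared in part through the kidney. The proximal tubule takes up filtered solutes and secretes organic cations and anions through membrane transporters, and it is the segment that most filtered toxins reach first. Nuclear factors such as NRF2, ATF6 and NF-κB switch on detoxification, protein folding and inflammatory genes in stressed cells, and immediate early genes such as FOS and EGR1 are transcribed within minutes of a stimulus and fade again quickly.

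The libraries held 50255295 to 68747047 counts each, and mitochondrial transcripts took 12.7% to 20.7% of them, except for 8.16% in AFB1_CUR replicate 2. A gene was tested where 5 or more libraries reached 1 FPKM (a fragment count scaled to transcript length and library size), which left 13162 genes, and the fitted values below come from edgeR's quasi-likelihood test. A gene was called where its p before adjustment was under 0.05 and its fold exceeded 1.5. By this rule 120 genes (0.912%) were higher and 77 (0.585%) lower in the fed libraries, and the p alone was under 0.05 for 883 genes (6.71%). After Benjamini-Hochberg adjustment over the 13162 genes, edgeR called 0 genes (smallest adjusted p = 0.538), limma with voom weights called 0 and DESeq2 called 9. Every call below is therefore one before adjustment, unless stated otherwise. The p of a call sets the group difference against the spread between the sheep sequenced here. Each sheep was treated as independent, although they were penned in pairs. Fold changes are on the log2 scale, fed against CON, and levels are FPKM.

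AFB1 replicate 2 and AFB1_CUR replicate 2 stood apart from the other 12 libraries in their high levels of lymphoid transcripts, described with the higher genes. Many results that rest on them are given with and without them, and their part in the results was not tested.

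Of the called genes, 93 higher genes (0.707% of all tested) and 51 lower genes (0.387%) had moved by more than 1.5-fold in the same direction in both fed groups. Both contrasts use the same 5 CON libraries, so their sharing is a description and not independent support. For 8 of the 93 shared higher genes no CON library reached 1 FPKM, so they could be tested only through the fed libraries. Among these 144 shared genes, 50 also had an unadjusted p under 0.05 in each contrast, 27 higher and 23 lower.

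Several immediate early genes were lower in both fed groups. FOS, EGR1, ATF3, NR4A1 and CCN1 were called lower, and all 5 were among the 51 shared lower genes. They were 5 of the 24 tested members of a list of 29 immediate early and CCN genes, and no member was called higher. Over all tested genes, 0.585% were called lower and 51.7% of the estimates were higher. This list and those below were chosen with earlier results of these data known, so their counts are descriptions. The median log2 fold change over the 24 members was -0.20, against 0.0074 over all tested genes, and 18 of the 24 estimates were lower.

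CCN1, which encodes a secreted matricellular protein and lies on chromosome 1 from 62636068 to 62638968, was at 36.8, 43.9, 58.2, 14.4 and 17.1 FPKM in CON replicates 1 to 5. It was at 11.6, 7.23, 6.39 and 6.63 FPKM in AFB1 replicates 2 to 5 and at 17.5, 31.7, 8.48, 8.29 and 11.1 FPKM in AFB1_CUR replicates 1 to 5. Thus 7 of the 9 fed libraries lay below the lowest CON library, and AFB1_CUR replicates 1 and 2 overlapped with CON. The mean was 34.1 ± 18.5 FPKM in CON (SD, n = 5) and 12.1 ± 8.14 FPKM in the fed libraries (SD, n = 9). The log2 fold change was -1.57 (SE 0.37, unadjusted p = 0.000806), and the Benjamini-Hochberg adjusted p in edgeR was 0.713. It was -2.10 in AFB1 and -1.24 in AFB1_CUR, and the difference between the fed groups did not pass the test (unadjusted p = 0.0661).

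EGR1, a zinc finger transcription factor on chromosome 5 from 47499104 to 47501425, was at 22.1, 60.2, 80.2, 13.3 and 11.8 FPKM in CON replicates 1 to 5. In the fed libraries it was at 9.69, 12.5, 6.91 and 5.88 FPKM in AFB1 and at 29.1, 25.9, 10.3, 8.86 and 7.08 FPKM in AFB1_CUR. CON replicates 2 and 3 were the highest of all libraries, and 6 of the 9 fed libraries lay below the lowest CON library. EGR1 fell by 1.58 on the log2 scale (SE 0.47, unadjusted p = 0.00454).

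FOS, a subunit of the AP-1 transcription factor that was chosen after its values were seen, lies on chromosome 7 from 84571490 to 84574889. It was at 8.93, 23.4, 56.1, 6.05 and 6.36 FPKM in CON. It was at 6.22, 4.14, 4.37 and 3.22 FPKM in AFB1 and at 9.02, 24.3, 4.89, 3.07 and 2.65 FPKM in AFB1_CUR, with a log2 fold change of -1.64 (SE 0.57, unadjusted p = 0.0119). Again CON replicate 3 was the highest, and AFB1_CUR replicate 2 was as high as CON replicate 2. NR4A1, an orphan nuclear receptor, stood at 14.3 FPKM in CON replicate 3, at 1.36 to 5.14 FPKM in the other CON libraries and at 1.05 to 3.46 FPKM in the fed libraries (log2 fold change -1.51, SE 0.43, unadjusted p = 0.00303). ATF3, a stress-induced repressor, was at 11.1 FPKM in CON replicate 3, at 4.02 to 5.64 FPKM in the other CON libraries and at 2.58 to 4.51 FPKM in the fed libraries (log2 fold change -0.76, SE 0.23, unadjusted p = 0.00442).

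The size of these differences depended on CON replicate 3. Without it, FOS (-0.77) and ATF3 (-0.39) were no longer called, the log2 fold change of NR4A1 was -0.65, and CCN1 (-1.27) and EGR1 (-1.08) were still called. The list then had 3 members called lower and a median of -0.01. DUSP1, a phosphatase that switches off MAP kinases and was chosen after its values were seen, had a log2 fold change of -0.63 and missed the threshold (unadjusted p = 0.0547), as did CCN2 (-0.41) and ZFP36 (-0.21). DUSP1 was called under 8 of 25 settings, which include DESeq2 and the 12 libraries without AFB1 replicate 2 and AFB1_CUR replicate 2 (-0.72), and CCN2 under 2. In those 12 libraries 6 members of the list were called lower, 21 of 24 estimates were lower and the median was -0.30. The summed FPKM of the list was 330 to 867 in CON and 315 to 681 in the fed libraries, with the highest fed value in AFB1_CUR replicate 2.

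**Figure D1:**
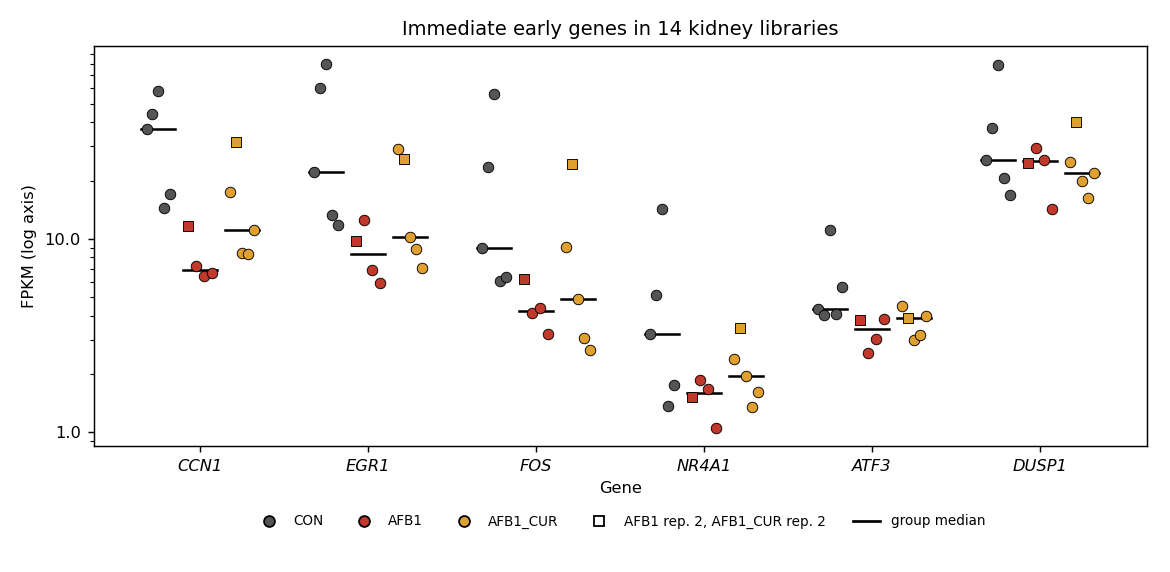
FPKM (log axis) of 6 immediate early genes in each of the 14 libraries, with CON in grey, AFB1 in red and AFB1_CUR in yellow, and a bar at each group median. Most fed libraries sit below the lowest CON library for CCN1, EGR1, FOS and ATF3, CON replicate 3 is the top point of each gene, and DUSP1, which was not called, overlaps between the groups.

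Some proximal tubule genes were also lower. ANPEP, SLC34A3 and SLC7A9 were called lower among the 27 tested members of a list of 31 proximal tubule genes. No member was called higher, and 25 of the 27 estimates were lower. Over all tested genes, 0.585% were called lower and 51.7% of the estimates were higher. The median log2 fold change of the proximal tubule list was -0.30. In the list of 38 genes of the loop, distal tubule and collecting duct, 0 of 33 tested members were called by edgeR (0 had an unadjusted p under 0.05), and the median was 0.0082. Without AFB1 replicate 2 and AFB1_CUR replicate 2, 1 member of that list was called higher.

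ANPEP, the brush border aminopeptidase N, on chromosome 18 from 20514993 to 20531871, was at 87.1, 97.8, 89.5, 156 and 218 FPKM in CON replicates 1 to 5. It was at 41.2, 89.4, 34.7 and 87.2 FPKM in AFB1 replicates 2 to 5 and at 87.6, 52.4, 66.4, 38.9 and 62.4 FPKM in AFB1_CUR replicates 1 to 5. All 9 fed libraries lay below the CON median, and 6 of them lay below every CON library. ANPEP fell by 1.09 on the log2 scale (SE 0.29, unadjusted p = 0.00198, edgeR adjusted p = 0.713), by 1.03 in AFB1 and by 1.14 in AFB1_CUR. It was called under each of the 25 alternative settings.

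SLC34A3, a sodium-phosphate cotransporter of the brush border, on chromosome 3 from 709616 to 714502, was at 84.4, 81.1, 81.9, 100.5 and 76.0 FPKM in CON. It was at 41.4, 76.6, 38.6 and 48.9 FPKM in AFB1 and at 61.7, 35.6, 63.4, 76.0 and 34.2 FPKM in AFB1_CUR. CON spread over a narrow range, and 8 of the 9 fed libraries lay below it. The log2 fold change was -0.71 (SE 0.22, unadjusted p = 0.00486).

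SLC47A2, which encodes the organic cation exporter MATE2 and was chosen after its values were seen, lies on chromosome 11 from 33654531 to 33673677. It was at 291, 221, 329, 271 and 195 FPKM in CON, at 92.4, 147, 98.3 and 206 FPKM in AFB1, and at 216, 160, 230, 155 and 149 FPKM in AFB1_CUR. Of the fed libraries, 6 lay below every CON library and all 9 below the CON median, and the log2 fold change was -0.73 (SE 0.23, unadjusted p = 0.00615). SLC7A9, the light chain of the cystine and basic amino acid transporter, was at 26.2 to 70.5 FPKM in CON and 11 to 42.1 FPKM in the fed libraries (log2 fold change -0.69, SE 0.31, unadjusted p = 0.0413). It was not shared, since its estimate in AFB1_CUR was -0.57, and it was called under 15 of 25 settings.

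Of the abundant metabolic genes of the segment, MIOX and PCK1 were not called. MIOX, the inositol oxygenase, had a log2 fold change of -0.14, and PCK1, the gluconeogenic carboxykinase, of 0.22. ACAA1, a peroxisomal thiolase, was called lower at 307 to 779 FPKM in CON and 188 to 495 FPKM in the fed libraries (log2 fold change -0.61, unadjusted p = 0.0474). However, it kept its call under only 10 of 25 settings. Without AFB1 replicate 2 and AFB1_CUR replicate 2 it was at -0.40 and not called. The summed proximal tubule level was lowest in AFB1_CUR replicate 2 (4408 FPKM) and AFB1 replicate 2 (4945 FPKM), against 6958 to 12690 FPKM in the other 12 libraries. Without these 2 libraries the list median was -0.11, 20 of 27 estimates were lower, and ANPEP alone was called. SLC34A3 then had a log2 fold change of -0.57 (unadjusted p = 0.0113), just short of the 1.5-fold limit. In bulk tissue, fewer cells of a type and less RNA per cell cannot be told apart.

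**Figure D2:**
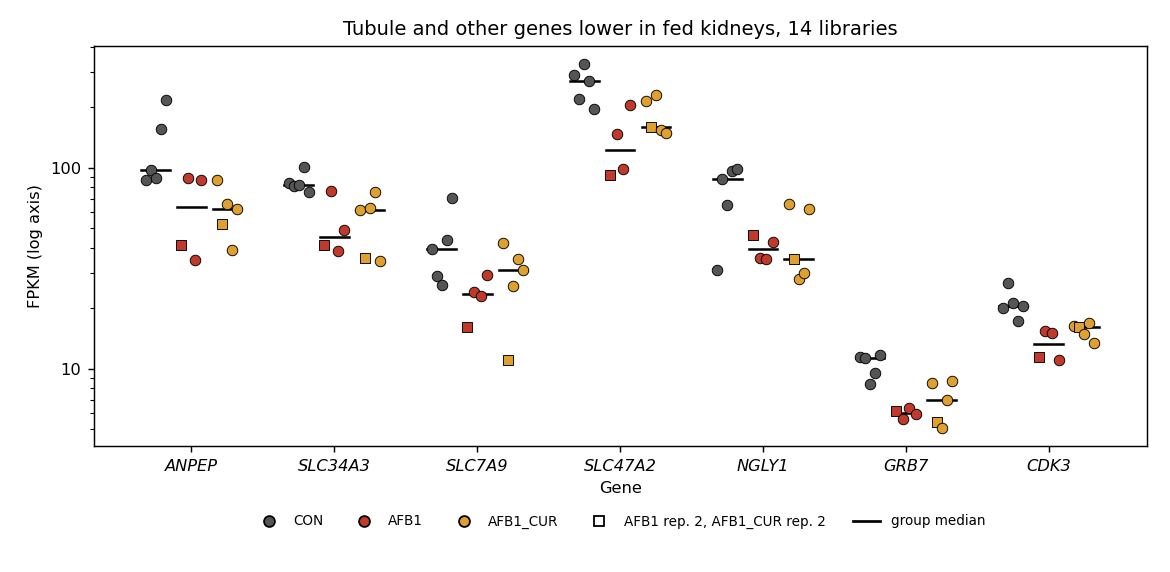
FPKM (log axis) of 7 genes that were lower in the fed kidneys, in each of the 14 libraries, with CON in grey, AFB1 in red and AFB1_CUR in yellow, a bar at each group median, and squares for AFB1 replicate 2 and AFB1_CUR replicate 2. CDK3 shows no overlap between CON and fed libraries, and for ANPEP, SLC34A3, SLC47A2, NGLY1 and GRB7 every fed library lies below the CON median.

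Other genes called lower are described singly. GRB7, an adaptor of receptor tyrosine kinases on chromosome 11 from 39848104 to 39856413, was at 11.4, 11.3, 8.40, 9.5 and 11.7 FPKM in CON, at 6.13, 5.62, 6.40 and 5.97 FPKM in AFB1 and at 8.52, 5.43, 5.07, 6.98 and 8.68 FPKM in AFB1_CUR. The ranges touched only through CON replicate 3 and 2 AFB1_CUR libraries. Its log2 fold change was -0.72 (SE 0.14, unadjusted p = 0.000166), its adjusted p was 0.546 in edgeR and 0.0175 in DESeq2, and it was called under each of the 25 settings.

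NGLY1, the cytosolic enzyme that strips N-glycans from misfolded glycoproteins, lies on chromosome 26 from 39355589 to 39416804. It was at 31.1, 87.9, 65.4, 96.6 and 98.9 FPKM in CON, at 46.4, 35.8, 35.2 and 42.8 FPKM in AFB1 and at 66.3, 35.1, 28.0, 30.0 and 62.2 FPKM in AFB1_CUR. CON replicate 1 was as low as the fed libraries and the other CON libraries were higher than nearly all of them (log2 fold change -0.88, SE 0.26, unadjusted p = 0.00456). SULT2B1, a sulfotransferase of sterols, was at 1.42 to 9.76 FPKM in CON and 1.58 to 4.16 FPKM in the fed libraries (log2 fold change -1.22, SE 0.35, unadjusted p = 0.00366). NGLY1 and SULT2B1 were called under each of the 25 settings.

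NR1D1, the REV-ERBα repressor of the circadian clock, was the only called member among 19 tested clock genes. It was at 23.7, 13.3, 11.1, 12.9 and 5.94 FPKM in CON, at 8.61, 5.78, 4.39 and 3.99 FPKM in AFB1 and at 7.63, 8.99, 6.63, 4.52 and 12.1 FPKM in AFB1_CUR. Every fed library lay below the CON median (log2 fold change -1.01, SE 0.28, unadjusted p = 0.00280). The clock outputs DBP (-0.33, unadjusted p = 0.0224) and TEF (-0.22, unadjusted p = 0.0392), chosen after their values were seen, differed by less than 1.5-fold. The median of the clock list was 0.0155, and the hour of sampling is not given in the sources used here.

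PRIMA1, the membrane anchor of acetylcholinesterase, had a log2 fold change of -0.97 (SE 0.28, unadjusted p = 0.00348), and KCP, a secreted regulator of bone morphogenetic proteins, of -0.62 (SE 0.17, unadjusted p = 0.00191). Both were shared, but KCP lost its call under 8 of 25 settings. OSGIN1, an oxidative stress-induced growth inhibitor, was at 68.1, 206, 137, 61.9 and 61.0 FPKM in CON, at 46.6, 107, 63.2 and 34.1 FPKM in AFB1 and at 34.3, 35.2, 41.2, 108 and 39.5 FPKM in AFB1_CUR. It fell by 0.92 on the log2 scale (SE 0.37, unadjusted p = 0.0232), and it lost its call when CON replicate 2 (the highest), CON replicate 3 or the 2 libraries that stood apart were left out. Without those 2 it was at -0.78 (unadjusted p = 0.0599), and with all 15 libraries it was at -0.41 and not called.

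Few genes separated the groups without any overlap. All 9 fed libraries lay above all 5 CON libraries for 4 genes (0.0304%) and below them for 10 genes (0.076%). Of these 14 genes, WDR97 and LOC114110432 were called, both lower, and the remaining 12 differed by less than 1.5-fold. These genes were chosen after their values were seen. WDR97, a WD repeat protein on chromosome 9 from 13677585 to 13686278, was at 7.87, 10.3, 7.18, 7.25 and 6.70 FPKM in CON, at 5.35, 6.58, 4.63 and 3.49 FPKM in AFB1 and at 5.46, 5.26, 4.95, 6.35 and 5.38 FPKM in AFB1_CUR (log2 fold change -0.62, SE 0.12, unadjusted p = 0.000123). It lost its call without CON replicate 2, without AFB1 replicate 5 and without the 2 libraries that stood apart, where its fold fell short of 1.5.

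CDK3, a cyclin-dependent kinase on chromosome 11 from 54988953 to 54992921, was at 20.2, 26.6, 21.4, 17.3 and 20.6 FPKM in CON, at 11.5, 15.5, 15.0 and 11.1 FPKM in AFB1 and at 16.3, 16.1, 14.8, 16.9 and 13.4 FPKM in AFB1_CUR. The lowest CON library was thus just above the highest fed library, and the log2 fold change of -0.58 (SE 0.11, unadjusted p = 0.000107) was under the 1.5-fold limit. CDK3 and WDR97 were also among the 9 genes that DESeq2 called after adjustment (adjusted p = 0.0085 for each). The others were IFT140 (log2 fold change -0.31 in edgeR), a subunit of the cilium transport complex, REPIN1 (-0.52), a zinc finger protein, DPH1 (-0.31), an enzyme of diphthamide synthesis, GRB7, the loci LOC114110432 (-0.68) and LOC121817415 (-0.51), and LOC114111007, described further on. Except for LOC114111007, all of them were lower in the fed libraries.

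Many of the higher genes had their highest level in a pair of libraries. Of the 93 shared higher genes, 79 (84.9%) had their highest value in AFB1 replicate 2 or AFB1_CUR replicate 2, against 41.9% of all tested genes, and 12 (12.9%) are described as immunoglobulin chain or variable region loci, JCHAIN not counted. The same description search found 50 of all tested genes (0.38%), among them genes that only share an immunoglobulin domain. These 2 libraries, one in each fed group, stood apart on the first principal component, which held 37.7% of the variance (38.9 and 60.2, against -33.5 to 10.3 in the others).

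The summed level of 14 B cell markers was 725 FPKM in AFB1 replicate 2 and 1178 FPKM in AFB1_CUR replicate 2, against 8.92 to 42.9 FPKM in CON and 26.6 to 101 FPKM in the other 7 fed libraries. The T and NK cell markers summed to 145 and 186 FPKM in them and to 19.8 to 75.6 FPKM in the other 12 libraries, and the macrophage and myeloid markers to 222 and 229 FPKM against 46.2 to 121 FPKM. Cell cycle genes summed to 161 and 253 FPKM there and to 45.8 to 90.9 FPKM elsewhere, and adrenal gland markers to 8.74 and 21 FPKM there and to 1.84 to 5.71 FPKM elsewhere. Apart from these 2 libraries, the fed and CON ranges of these sums overlapped.

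**Figure D3:**
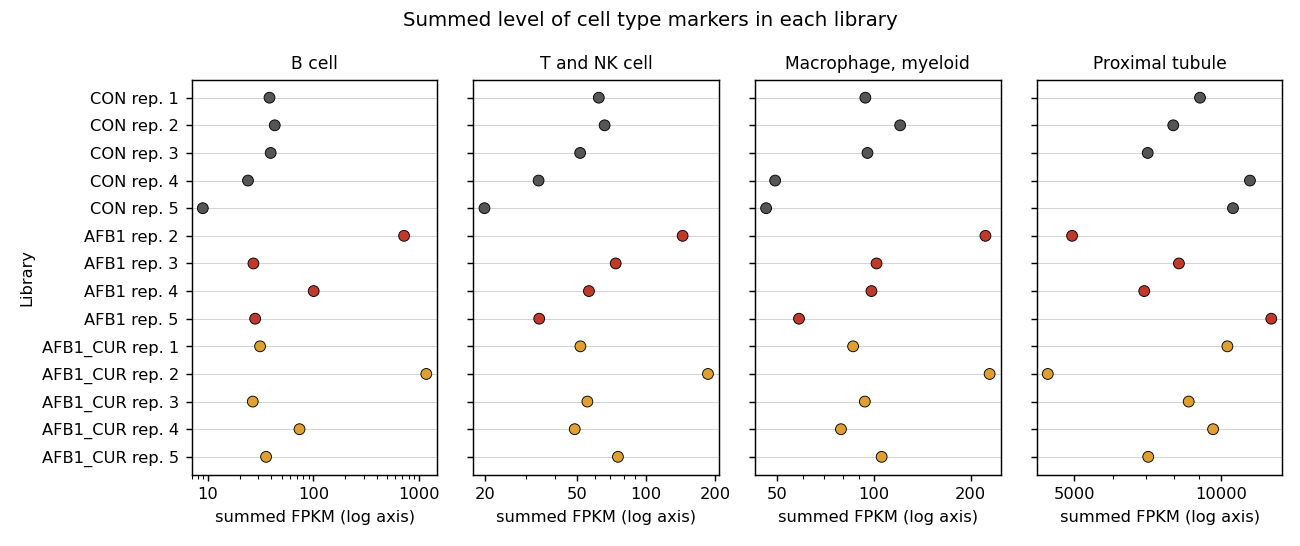
Summed FPKM (log axes) of the markers of B cells, T and NK cells, macrophages and myeloid cells, and proximal tubule, with 1 row per library and CON in grey, AFB1 in red and AFB1_CUR in yellow. AFB1 replicate 2 and AFB1_CUR replicate 2 hold the 2 highest sums of the 3 blood cell panels and the 2 lowest of the proximal tubule panel.

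JCHAIN, the joining chain of polymeric immunoglobulins, on chromosome 6 from 86765426 to 86775039, showed this most clearly. It was at 28.1, 27.2, 24.7, 18.0 and 6.27 FPKM in CON, at 559, 16.8, 82.3 and 21.5 FPKM in AFB1 and at 22.5, 856, 18.5, 64.3 and 26.6 FPKM in AFB1_CUR. The log2 fold change of 2.99 (SE 1.08, unadjusted p = 0.0146) became 0.81 without the 2 libraries, and the call was lost. MZB1, a chaperone of plasma cells, was at 77.6 FPKM in AFB1 replicate 2 and 46.5 FPKM in AFB1_CUR replicate 2, at 0.225 to 3.11 FPKM in CON and at 0.912 to 6.97 FPKM in the other fed libraries. Its log2 fold change went from 3.22 to 0.72.

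Among the other leukocyte markers, CD3D (0.92), CD8B (1.22) and IL7R (1.33) of T cells and CD68 (1.80), CSF1R (0.86) and CD86 (0.88) of macrophages were called higher, by the log2 fold changes given. They were 3 of 11 tested T and NK cell markers and 3 of 12 tested myeloid markers, beside 2 of 4 tested B cell markers. Of all tested genes 0.912% were called higher. Without the 2 libraries none of these 8 markers was called (0 in edgeR's quasi-likelihood test). All 11 T and NK cell and all 12 myeloid estimates were nonetheless higher then, with medians of 0.32 and 0.13. CD3D, CD8B, CD68, CSF1R and CD86 also lost their calls when either library alone was left out, and IL7R when AFB1_CUR replicate 2 was. They lost them too when CON replicate 4 or 5, the CON libraries with the lowest leukocyte sums, was left out.

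Some immune genes were called with and without these libraries. TLR7, the endosomal receptor of single-stranded RNA, was at 0.326 to 1.09 FPKM in CON and 0.570 to 3.71 FPKM in the fed libraries (log2 fold change 1.20 in all 14 libraries and 0.77 in the 12). CLEC9A, a lectin of cross-presenting dendritic cells, changed by 0.89 and 0.69, CD96, a receptor of T and NK cells, by 0.90 and 0.66, BANK1, a B cell scaffold, by 1.32 and 0.70, and EAF2, an elongation factor, by 1.84 and 0.91, in 14 and 12 libraries. For BANK1 and EAF2 no CON library reached 1 FPKM, so they were tested only because fed libraries did. TLR2, a receptor of bacterial lipoproteins, was called at 0.71 and lost its call without the 2 libraries (0.65).

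With the 12 libraries, 51 genes (0.387%) were called higher and 62 (0.471%) lower, edgeR's quasi-likelihood test called 0 after adjustment (smallest adjusted p = 0.919), and 650 had an unadjusted p under 0.05. Of the 120 higher genes, 34 were called in both settings, and of the 77 lower genes 42 were. Of the shared genes, 21 of 93 higher and 28 of 51 lower remained shared. Every shared gene kept its sign, and the median log2 fold change went from 1.08 to 0.66 for the higher genes and from -0.86 to -0.77 for the lower genes.

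**Figure D4:**
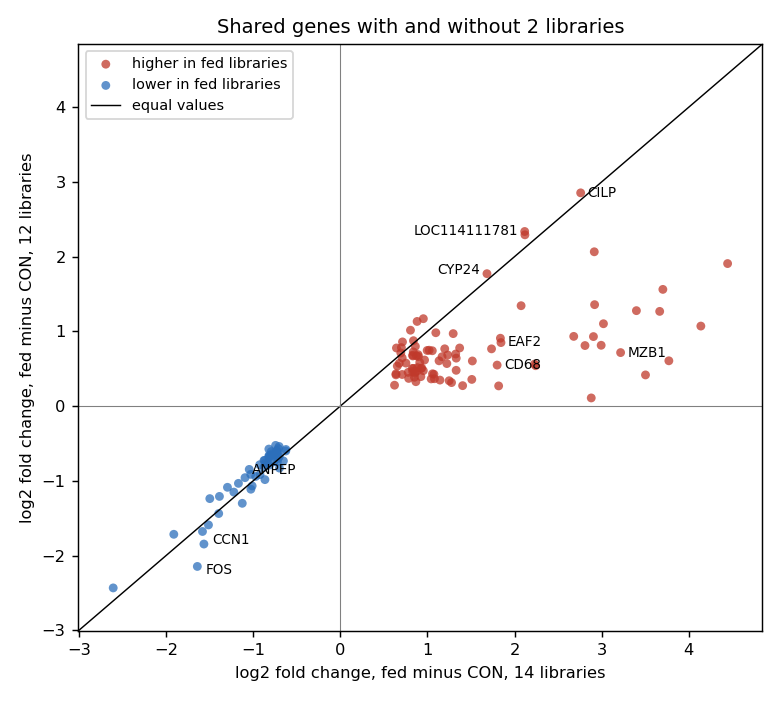
Log2 fold change, fed minus CON, of the shared genes in 14 libraries (horizontal axis) and without AFB1 replicate 2 and AFB1_CUR replicate 2 (vertical axis), with higher genes in red, lower genes in blue and a line at equal values. Lower genes lie along the line, most higher genes lie well under it, and CYP24, CILP and LOC114111781 lie on or above it. LOC114111007 lies outside the axes and is not drawn.

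Some higher genes were called with and without the 2 libraries. APOD, a lipocalin that binds small hydrophobic ligands, lies on chromosome 1 from 192885541 to 192898072 and was at 24.1, 34.3, 33.1, 30.2 and 21.9 FPKM in CON, at 57.5, 35.1, 47.2 and 47.5 FPKM in AFB1 and at 29.0, 81.9, 53.9, 86.5 and 47.7 FPKM in AFB1_CUR. All fed libraries except AFB1_CUR replicate 1 exceeded the highest CON library. The log2 fold change was 0.86 (SE 0.22, unadjusted p = 0.00144, edgeR adjusted p = 0.713) and 0.80 in the 12 libraries.

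NRAS, a small GTPase of the RAS family, was at 0.883, 2.05, 1.74, 1.13 and 1.32 FPKM in CON, at 2.38, 1.92, 2.01 and 2.72 FPKM in AFB1 and at 4.07, 3.04, 2.77, 2.27 and 2.24 FPKM in AFB1_CUR. All 9 fed libraries exceeded the CON median and 7 exceeded every CON library (log2 fold change 0.84, SE 0.22, unadjusted p = 0.00150). NUCB2, a calcium-binding protein that is the precursor of nesfatin, was at 0.912 to 1.74 FPKM in CON and 1.47 to 3.98 FPKM in the fed libraries, again with 7 of 9 above every CON library (log2 fold change 0.83, SE 0.23, unadjusted p = 0.00270). MMRN1 (1.02), a multimerin of platelets and endothelium, LTBP2 (0.65), a matrix protein that binds elastic fibres, IMPACT (0.84), an inhibitor of the kinase GCN2, and DIPK1A (0.64) were also shared in the 14 libraries. None of these 4 was shared in the 12 libraries, where MMRN1 (0.75) and IMPACT (0.73) were still called and LTBP2 (0.54) and DIPK1A (0.43) were not.

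CYP24, the 24-hydroxylase that inactivates vitamin D in the tubule, on chromosome 13 from 81624097 to 81646391, was chosen after its values were seen. It was at 1.03, 1.28, 1.24, 5.70 and 1.12 FPKM in CON, at 5.94, 3.77, 2.2 and 18.2 FPKM in AFB1 and at 11.8, 6.84, 3.62, 2.42 and 6.44 FPKM in AFB1_CUR. All 9 fed libraries lay above 4 of the 5 CON libraries, and CON replicate 4 overlapped with them. The log2 fold change was 1.68 (SE 0.61, unadjusted p = 0.0145), and it was 2.55 without CON replicate 4 and 1.28 without AFB1 replicate 5, the highest library. LOC101116039, described in the file as the 1-alpha-hydroxylase that activates vitamin D, was at 9.76 to 48.5 FPKM in CON and 6.43 to 45.1 FPKM in the fed libraries and was not called (log2 fold change -0.04). None of 14 tested genes of vitamin D, calcium and phosphate handling was called (0 in edgeR's quasi-likelihood test, 0 with an unadjusted p under 0.05); CYP24 is not a member under this symbol, and SLC34A3, called lower above, is not in that list.

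LOC114111007 and LOC114111781, annotated as related copies of the UK114 ribonuclease gene on chromosome 26 and chromosome X, moved together over the libraries. LOC114111007 was at 0.0791, 0, 0, 0.0434 and 0.0260 FPKM in CON, at 4.82, 7.94, 9.09 and 29.6 FPKM in AFB1 and at 0.285, 5.12, 8.86, 0.174 and 0.0297 FPKM in AFB1_CUR. LOC114111781 was at 14, 9.18, 10.5, 17.7 and 17.9 FPKM in CON, at 41.8, 66.9, 74.5 and 193 FPKM in AFB1 and at 17.8, 40.8, 74.1, 17.3 and 15.4 FPKM in AFB1_CUR. The 6 fed libraries with the high level of one were those with the high level of the other, and the remaining 3, all of AFB1_CUR, were the lowest fed libraries for both. Both were chosen after their values were seen. LOC114111781 was called under each of the 25 settings (log2 fold change 2.12, SE 0.61, unadjusted p = 0.00337). Reads can be split between such copies, so the level of each is uncertain, and with so few reads in CON no fold change is given for LOC114111007. DESeq2 gave LOC114111007 an adjusted p of 2.61e-05, but it too was tested only because fed libraries reached 1 FPKM.

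CILP, a cartilage matrix protein that was chosen after its values were seen, was at 0.718, 0.103, 0.182, 0.0976 and 0.567 FPKM in CON, at 0.958, 9.13, 2.16 and 0.473 FPKM in AFB1 and at 4.2, 3.08, 0.103, 0.162 and 1.21 FPKM in AFB1_CUR. The fed libraries ranged from 0.103 to 9.13 FPKM and overlapped with CON (log2 fold change 2.76, SE 0.98, unadjusted p = 0.0134). It passed the filter on low values only through the fed libraries, where 5 reached 1 FPKM, so a difference was built into its being tested. ITGB6, the epithelial integrin that activates TGF-β, was the only called member of 19 tested genes of tubular injury and repair. It was at 0.892 to 2.02 FPKM in CON, 2.01 to 3.81 FPKM in AFB1 and 1.73 to 2.78 FPKM in AFB1_CUR (log2 fold change 0.83, SE 0.22, unadjusted p = 0.00192), and it was not shared because its estimate in AFB1_CUR was 0.57. POSTN, a matrix protein of fibroblasts that likewise reached 1 FPKM in fed libraries alone, was the only called member of 25 tested extracellular matrix genes (1.09) and was called under 8 of the 24 settings that tested it, but not in the 12 libraries (0.45). Of the 25 matrix estimates 18 were higher in the 14 libraries and 19 were lower in the 12, so no direction is given for that list.

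The stress and detoxification genes that the study followed and that are named below were not called. By RT-qPCR and western blot, the study reported that AFB1 moved such genes and that curcumin reversed the moves. Pooling the fed groups averages over such a reversal, so the pooled values do not test it. The unfolded protein response list had a median of 0.19 in AFB1 and 0.14 in AFB1_CUR, each against CON. Of 27 tested genes of the unfolded protein response, edgeR's quasi-likelihood test called 0, and 2 had an unadjusted p under 0.05. Their estimates nonetheless leaned one way, since 26 of 27 were higher in the fed libraries (51.7% of all tested genes were), with a median of 0.20, and 25 of 27 with a median of 0.16 in the 12 libraries. These genes are co-regulated, so their number is not a number of independent observations. Plasma cells, whose markers were highest in AFB1 replicate 2 and AFB1_CUR replicate 2, express many of them. Their part in these estimates was not tested.

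HSPA5, the endoplasmic reticulum chaperone GRP78, was at 96.3 to 163 FPKM in CON and 111 to 197 FPKM in the fed libraries (log2 fold change 0.14, SE 0.15). The chaperone CALR had a log2 fold change of 0.22, the disulfide isomerase PDIA3 of 0.22, the sensors ATF6 of 0.06 and ERN1 of 0.20, and the factors ATF4 of 0.07 and DDIT3 of 0.20. XBP1, the transcription factor spliced by ERN1, had an estimate of 0.35 (unadjusted p = 0.0343), and of 0.19 in the 12 libraries. It was at 104 and 107 FPKM in AFB1_CUR replicate 2 and AFB1 replicate 2, against 47.1 to 66.2 FPKM elsewhere. PPP1R15A, the phosphatase subunit that reverses the phosphorylation of EIF2S1, was the exception, at 19.5 to 28.9 FPKM in CON and 15.6 to 21.9 FPKM in the fed libraries (log2 fold change -0.32, SE 0.09, unadjusted p = 0.00268). XBP1 and PPP1R15A were chosen after their values were seen.

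OSGIN1 was the only called member of 19 tested genes of the NRF2 pathway, and the median was -0.05. NFE2L2, which encodes NRF2, was at 46.3, 61.5, 60.3, 62.5 and 49.4 FPKM in CON, at 69.7, 70.7, 80.1 and 63.2 FPKM in AFB1 and at 58.5, 80.7, 78.3, 55.5 and 63.0 FPKM in AFB1_CUR. Thus 7 of the 9 fed libraries exceeded every CON library, by little, and the log2 fold change of 0.26 (SE 0.11, unadjusted p = 0.0331) was under the 1.5-fold limit. Its partner KEAP1 (-0.06) and its targets HMOX1 (0.37), NQO1 (0.12), PRDX1 (-0.01) and GSTA1 (-0.25) had the log2 fold changes given and an unadjusted p above 0.05.

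Of 20 antioxidant enzymes 0 were called by edgeR's quasi-likelihood test, and 2 had an unadjusted p under 0.05. SOD2, the mitochondrial superoxide dismutase, on chromosome 8 from 83703254 to 83713388, was at 93.6, 85.2, 100.4, 83.7 and 121 FPKM in CON, at 115, 136, 114 and 155 FPKM in AFB1 and at 132, 113, 114, 140 and 148 FPKM in AFB1_CUR. Each fed library exceeded 4 of the 5 CON libraries, and only CON replicate 5 overlapped. The mean was 96.8 ± 15.2 FPKM in CON (SD, n = 5) and 129.6 ± 16.3 FPKM in the fed libraries (SD, n = 9). The log2 fold change was 0.39 (SE 0.14, unadjusted p = 0.0126), and 0.48 in the 12 libraries.

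Of 21 tested xenobiotic metabolism genes 0 were called by edgeR's quasi-likelihood test, and 2 had an unadjusted p under 0.05. These 2, named after their values were seen, were AHR, the aryl hydrocarbon receptor, and its target TIPARP. AHR was at 2.37 to 3.16 FPKM in CON and 3.05 to 5.41 FPKM in the fed libraries (log2 fold change 0.38, SE 0.12, unadjusted p = 0.00489), and TIPARP at 5.20 to 9.96 FPKM and 7.23 to 12.8 FPKM (0.40, SE 0.15, unadjusted p = 0.0192). The median over the list was -0.13, and 0.03 in the 12 libraries.

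Apoptosis and DNA damage genes showed no calls beyond APAF1, the apoptosome scaffold, which was at 0.694 to 1.34 FPKM in CON and 0.853 to 2.67 FPKM in the fed libraries (log2 fold change 0.61, unadjusted p = 0.0152) and lost its call without the 2 libraries (0.38). BAX (-0.05), BCL2 (-0.12) and CASP9 (0.01) had the log2 fold changes given. Of 26 tested p53 and DNA damage response genes, edgeR's quasi-likelihood test called 0 and 0 had an unadjusted p under 0.05.

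TLR2 was the only called member of 31 tested NF-κB pathway and cytokine genes. The subunits RELA (0.07) and NFKB1 (0.19), the kinase IKBKB (0.01), the receptors IL1R1 (0.45) and IL6R (-0.06), the cytokine IL18 (0.44) and the chemokine CXCL9 (0.60) were not called, with the log2 fold changes given. In the 12 libraries IL1R1 was at 0.19, IL18 at 0.18 and CXCL9 at -0.06. Without CON replicate 2, CXCL9 was at 1.42. The median of the list was 0.27 in the 14 libraries and 0.07 in the 12. IL1B, IL6 and TNF did not pass the filter on low values and were not tested.

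Interferon-stimulated genes varied between single sheep more than between groups. Their summed level was 1255 FPKM in CON replicate 5, 1235 FPKM in AFB1 replicate 3 and 640 FPKM in AFB1_CUR replicate 2, against 126 to 451 FPKM in the others. MX1, an antiviral GTPase, was at 4.24, 34.3, 6.33, 4.08 and 117 FPKM in CON, at 16.4, 95.5, 34 and 5.29 FPKM in AFB1 and at 5.49, 37.7, 3.01, 3.81 and 7.04 FPKM in AFB1_CUR. EIF2AK2, the RNA-activated kinase of the list, had a log2 fold change of -0.25, and of 0.81 without CON replicate 5. Of 30 tested members edgeR's quasi-likelihood test called 0, and 0 had an unadjusted p under 0.05. The list median was -0.23 with 25 of 30 estimates lower, and 0.39 with 28 of 30 higher when CON replicate 5 was left out, so no direction is given for the list.

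**Figure D5:**
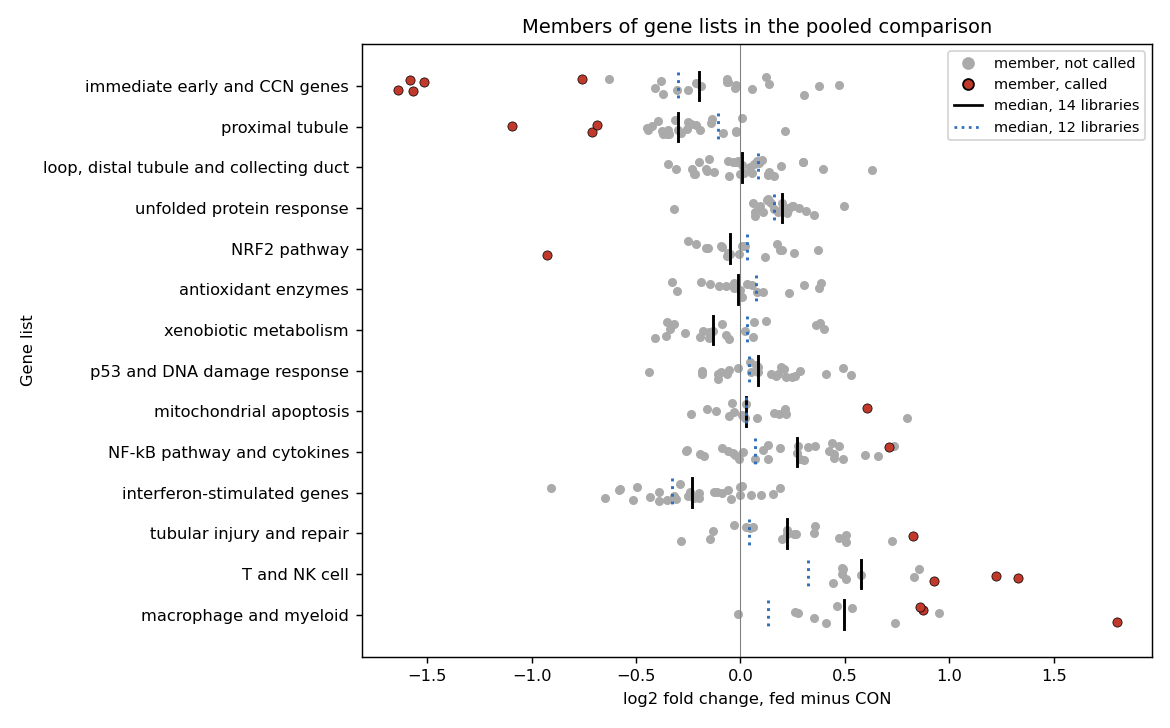
Log2 fold change, fed minus CON, of the tested members of 14 gene lists, with called members in red, other members in grey, a solid line at the median of 14 libraries and a dotted line at the median of 12 libraries. Called members stand out to the left for the immediate early and proximal tubule lists and to the right for the leukocyte lists, and the unfolded protein response members sit close together just right of 0, with PPP1R15A as the exception.

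Several other processes gave no call in edgeR's quasi-likelihood test. None of 18 tested oxidative phosphorylation genes was called (0 had an unadjusted p under 0.05), nor of 17 endothelial markers (0), 22 heat shock genes (2), 20 hypoxia genes (3) and 17 glucocorticoid response genes (1), with the number at an unadjusted p under 0.05 in parentheses. Their median log2 fold changes lay between 0.0017 and 0.0504. Of 21 cell cycle genes 0 were called and 1 had an unadjusted p under 0.05, although 20 estimates were higher with a median of 0.51. In the 12 libraries 6 of 21 were higher and the median was -0.05, and the cell cycle sums given above were highest in AFB1 replicate 2 and AFB1_CUR replicate 2. The 15 tested complement genes (0 called, 1 with an unadjusted p under 0.05) went likewise from a median of 0.32 to one of -0.0008.

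The fed groups were also compared with each other for the genes named here. ITGB6 was lower in AFB1_CUR than in AFB1 (log2 fold change -0.52, unadjusted p = 0.0353), and so was LOC114111781 (-1.64, unadjusted p = 0.00786). For the other genes named the unadjusted p was above 0.05, which does not show that the groups were alike.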

How the data were processed

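The mRNA libraries (dUTP-stranded, paired-end) of 15 sheep are labelled as kidney, and 14 of them entered the main comparison. The authors deposited 1 table with raw read counts and FPKM per gene. The submitters' processing notes name cutadapt 1.9, HISAT2 2.2.1, StringTie 2.1.6, edgeR and DESeq2. Which build and which counting program were used is not given in the sources used here. Gene positions are those of the file, and 24848 of 25592 (97.1%) equal those of RefSeq's ARS-UI_Ramb_v3.0 annotation.

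Groups were taken from the sample titles, because another label counts upward within a group. Counts were tested in R 4.3.3 with edgeR 4.0.16 (TMM, quasi-likelihood, Benjamini-Hochberg adjustment), in a fed-against-CON model and a 3-group model for the contrasts of each fed group. The deposited FPKM served for the filter on low values (1 FPKM in 5 libraries), for the levels and for limma 3.58.1. DESeq2 1.42.0, other filters, scalings and pseudocounts, a replicate block and leaving out libraries were alternatives, 25 in all. No replicate pair was alike within counting noise. The fits were tested on simulated data. The members and gene lists were chosen with earlier results of these data known.

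The genes named were the 12 higher and 12 lower shared genes with a symbol and the smallest p, up to 4 called members per list and direction, abundant or study-named members of the stress, inflammation and tubule lists, and genes past adjustment. Others are marked as chosen after their values were seen. Not all genes under this rule are described, and some are not reported here. The depth of 50255295 to 68747047 counts sets the counting error, while the p-values also hold the spread between sheep.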

Additional observations from a re-analysis of the deposited data

Results flagged for a closer look

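In groups of 4 or 5 libraries, 20 of 291 gene and group combinations had a highest or lowest library beyond Dixon's 95% limit, where chance gives about 1 in 20. AFB1_CUR replicate 2 was the library in 10 of them. It was highest for MZB1 (46.5 FPKM), CD3D (22.5), EAF2 (12.8), DIPK1A (4.69), ITGB6 (2.78), CCN2 (114), ZFP36 (67.9), NFKB1 (18) and IKBKB (13.9) and lowest for ACAA1 (188). In the AFB1 group, replicate 2 was highest for UMOD (1730 FPKM) and XBP1 (107) and lowest for MIOX (383). AFB1 replicate 3 was highest for EIF2AK2 (22.5 FPKM) and lowest for NQO1 (6.82) and EIF2S1 (6.99), and AFB1 replicate 5 was lowest for BAX (10.6) and DPH1 (11.7). CYP24 stood at 5.7 FPKM in CON replicate 4 against 1.03 to 1.28 in the other CON libraries, and OSGIN1 at 108 FPKM in AFB1_CUR replicate 4 against 34.3 to 41.2 in the others of its group.

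The fed groups differed in the contrast between them for ITGB6 (log2 fold change -0.52, AFB1_CUR minus AFB1, unadjusted p = 0.0353) and LOC114111781 (-1.64, unadjusted p = 0.00786), both in edgeR's 3-group model. AFB1 replicate 1, which entered only the setting with all 15 libraries, held 25681 FPKM of ALB.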

How the results depend on the processing

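The 197 called genes became 1172 with no filter on low values, 94 with 1 FPKM required in all 14 libraries, 72 (32 higher, 40 lower) with limma on log2(FPKM + 1), 161 (59 higher, 102 lower) with voom sample weights and 113 without AFB1 replicate 2 and AFB1_CUR replicate 2. Leaving out 1 library gave 125 (AFB1_CUR replicate 2, 58 higher and 67 lower) to 276 (AFB1_CUR replicate 1). The split was 64 higher and 84 lower without CON replicate 4, and 86 and 88 without CON replicate 5. The 144 shared genes became 1010, 58, 44, 92 and 67 in the same order of settings, and 79 (AFB1_CUR replicate 2) to 203 (CON replicate 2) with 1 library left out, with 83 without AFB1 replicate 2. All 15 libraries gave 209 called genes (158 higher, 51 lower). Genes without overlap numbered 15 to 74 with 1 library left out, an alternative chosen after seeing the data, as was leaving out the 2 libraries together. Of 47 called genes in the text, 14 were called under every setting tried, and no call reversed. The replicate block gave 238 called and 141 shared genes, which held 140 of the 197 called and 90 of the 144 shared genes, and JCHAIN, MZB1, CD68, APAF1 and POSTN lost their calls under it. Same-numbered libraries deviated together with r over 0.1 in 7 of 13 pairs (-0.309 to 0.599). Their median r was 0.124, against -0.027 for the other pairs. The pairs among the replicates numbered 2 had r of 0.396, 0.438 and 0.599. Whether the numbers pair the animals was not settled, and the main fit did not pair them. The causes of these moves were not tested, apart from the number of genes tested under each filter.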
